A study of Rattus norvegicus with 32 samples.

Results

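The cytochrome P450 genes of families 1 to 4 were examined in the intestinal mucosa of Zucker rats, with 32 Affymetrix arrays (Rat Gene 1.1 ST), each holding the RNA of a single rat. Members were the genes with a probe set that carries a single gene symbol of the form Cyp, a digit of 1 to 4, letters and a number. This gave 48 genes out of 17245 with a single symbol, made up of 3 genes of the Cyp1 family, 31 of Cyp2, 3 of Cyp3 and 11 of Cyp4. A gene with several probe sets (6 of the 48) was given by the one with the highest mean. All rats were male. The groups were 16 Zucker-Leprfa/fa (ZO) rats given a probiotic by mouth each day for 30 days, 4 ZO rats given placebo for 30 days, 4 ZO rats at baseline, 4 Zucker-lean+/fa (ZL) rats given placebo for 30 days and 4 ZL rats at baseline. ZO rats carry the fa allele of the leptin receptor gene on both chromosomes and become obese, while ZL rats carry it on one and stay lean. The labels give 6 weeks of age for every rat, at baseline and after 30 days alike. They name no bacterial strain for the rats given a probiotic, so these formed 1 group. The study gave different rats different single strains or a mixture, so this group pools several treatments. Nor do the labels name the segment of the intestine.

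P450 enzymes are heme proteins that insert oxygen into their substrates, with electrons passed on by the reductase Por. Enzymes of families 1 to 3 act mainly on drugs, food compounds and steroids, and those of family 4 on fatty acids and eicosanoids. In the intestine they sit mostly in the enterocytes, where they meet compounds before these reach the liver. Many are controlled by receptors that sense small molecules, such as the aryl hydrocarbon receptor (AhR) for Cyp1a1, CAR and PXR for Cyp2b and Cyp3a genes, and PPAR alpha for Cyp4a genes.

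Signals are log2 values of the RMA normalization, after the lost decimal point was put back. The medians of the arrays ran from 4.79 to 4.97, and precision is limited by how many rats a group holds. As a check of the tissue, 10 enterocyte markers averaged 12.25 to 12.67 over the arrays, against 4.09 to 4.48 for 8 liver markers and 3.49 to 3.75 for 8 pancreas markers. The array of ZL placebo rat C13 stood apart, with a mean of 8.90 for 7 ileum markers, against 10.51 to 11.71 on the other 31 arrays. Its mean for 6 markers of the proximal small intestine was 11.14, against 8.34 to 10.73 on the others. In RNA from whole mucosa, fewer cells of a type and less RNA per cell cannot be told apart.

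Of the 48 genes, 19 had a mean signal above the median of all probe sets (4.89) and 29 lay at or below it. A mean over 10 was found for 10 genes, of families 2 to 4. Among these were Cyp4f1, Cyp4f5 and Cyp4f40 of the subfamily that hydroxylates leukotrienes and other long-chain fatty acids, with means of 11.77, 10.82 and 10.29. The fatty acid hydroxylase gene Cyp4b1 had a mean of 11.64, Cyp3a9 one of 11.64 and Cyp3a18 one of 10.80, both of the steroid and drug oxidising Cyp3a subfamily. The arachidonic acid epoxygenase gene Cyp2j4 had 10.48, Cyp2c13 had 10.68, Cyp2d4 had 10.53 and Cyp2b1 had 10.29. The remaining genes ran down to 2.50 for Cyp3a73. Cyp2c11 (2.77) and Cyp2c7 (3.04), of the same subfamily as Cyp2c13, were among those with a dim probe set, as were Cyp2e1 (3.17) and Cyp1a2 (3.99). Signals of different probe sets depend on their probes, so this order is not one of transcript abundance.

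**Figure D1:**
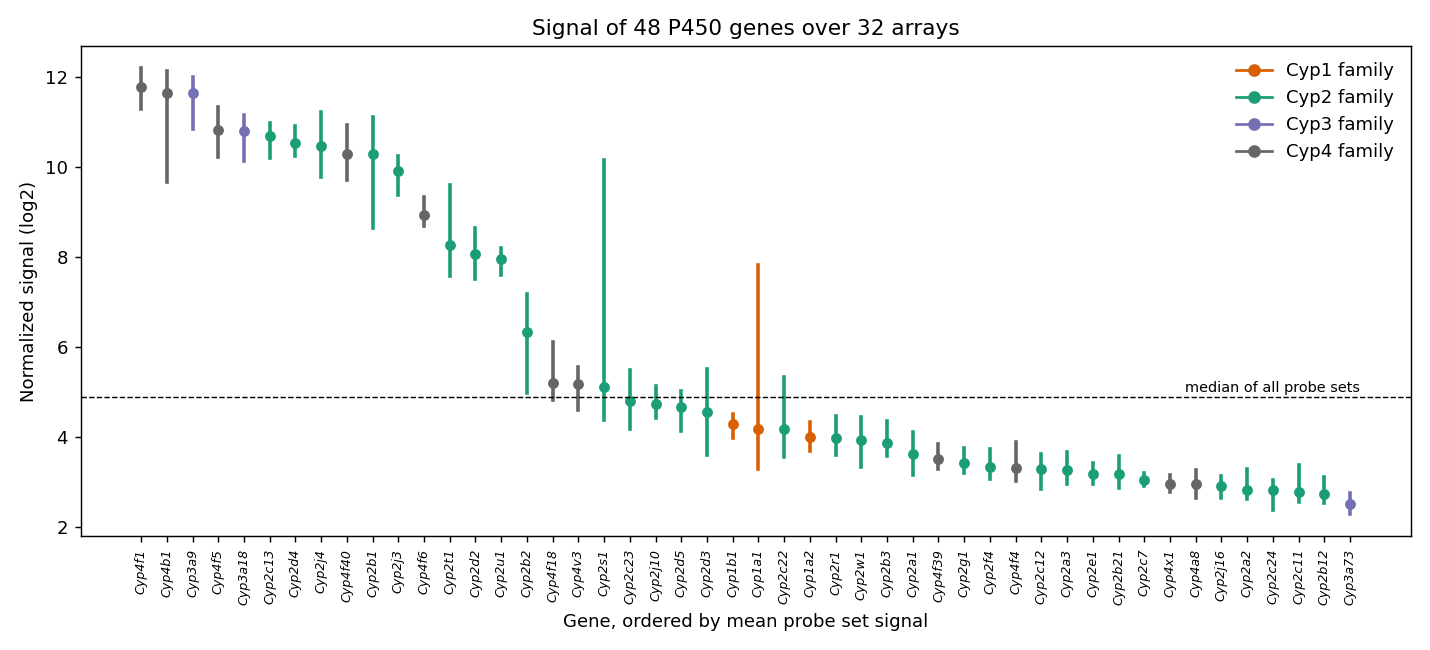
Mean log2 signal (points) and range over 32 arrays (lines) of 48 P450 genes, coloured by family, with the median of all probe sets as a dashed line. The lines are longest for Cyp2s1, Cyp1a1, Cyp2b1, Cyp2b2 and Cyp4b1, and 10 genes have a mean over 10.

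Within groups most members varied little between rats. The median of their standard deviations within groups was 0.17, against 0.16 over all probe sets. Only 5 members exceeded 0.4, namely Cyp2s1 (0.89), Cyp2b1 (0.66), Cyp1a1 (0.65), Cyp2b2 (0.63) and Cyp4b1 (0.48). The value of Cyp2s1 rests on 1 array, that of rat C13, described last.

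Cyp2b1 and Cyp2b2, which encode the phenobarbital-inducible enzymes of rat liver, are neighbours on chromosome 1. Their sequences upstream of the annotated gene starts are shown because the signals of both moved together from rat to rat. They come from the RefSeq promoter table (GRCr8, + strand), at chr1:90645948-90646097 for Cyp2b1 and chr1:90722093-90722242 for Cyp2b2, and capitals mark the bases that differ.
Cyp2b1: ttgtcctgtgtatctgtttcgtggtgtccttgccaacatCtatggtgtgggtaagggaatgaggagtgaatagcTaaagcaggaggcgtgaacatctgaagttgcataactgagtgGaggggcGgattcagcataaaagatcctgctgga
Cyp2b2: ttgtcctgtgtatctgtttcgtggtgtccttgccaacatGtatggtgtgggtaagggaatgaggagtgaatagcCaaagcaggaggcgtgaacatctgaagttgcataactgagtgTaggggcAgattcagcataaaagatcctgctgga
Of these 150 bases 146 were identical and 4 differed. Cyp2b1 had 10.39, 10.16, 10.90 and 10.51 in ZO placebo rats, against 9.66, 10.56, 10.72 and 10.61 in ZL placebo rats. At baseline it had 10.81, 10.70, 10.93 and 8.65 in ZO rats, against 9.20, 10.33, 11.10 and 11.04 in ZL rats. Single rats of either genotype were low, and the groups overlapped. Cyp2b2 was low in the same rats, with 4.96 in ZO baseline rat Z4, 5.18 in ZL baseline rat C1 and 5.73 in ZL placebo rat C11. After group means were subtracted, the 2 genes had a Pearson correlation of 0.94 over the 32 arrays, the highest among 1128 pairs of members, whose median was 0.04. Where genes are this alike, a probe set may also read the other gene, and this was not tested. Cyp3a9 varied with both (0.79 with Cyp2b2 and 0.73 with Cyp2b1), and Cyp2j4 with Cyp3a18 (0.81). The mean of the enterocyte markers had a correlation of 0.80 with Cyp2j4, 0.76 with Cyp2b2, 0.76 with Cyp3a9 and 0.73 with Cyp2b1. These points share arrays and normalization, and the part of the enterocyte content in the variation was not tested.

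**Figure D2:**
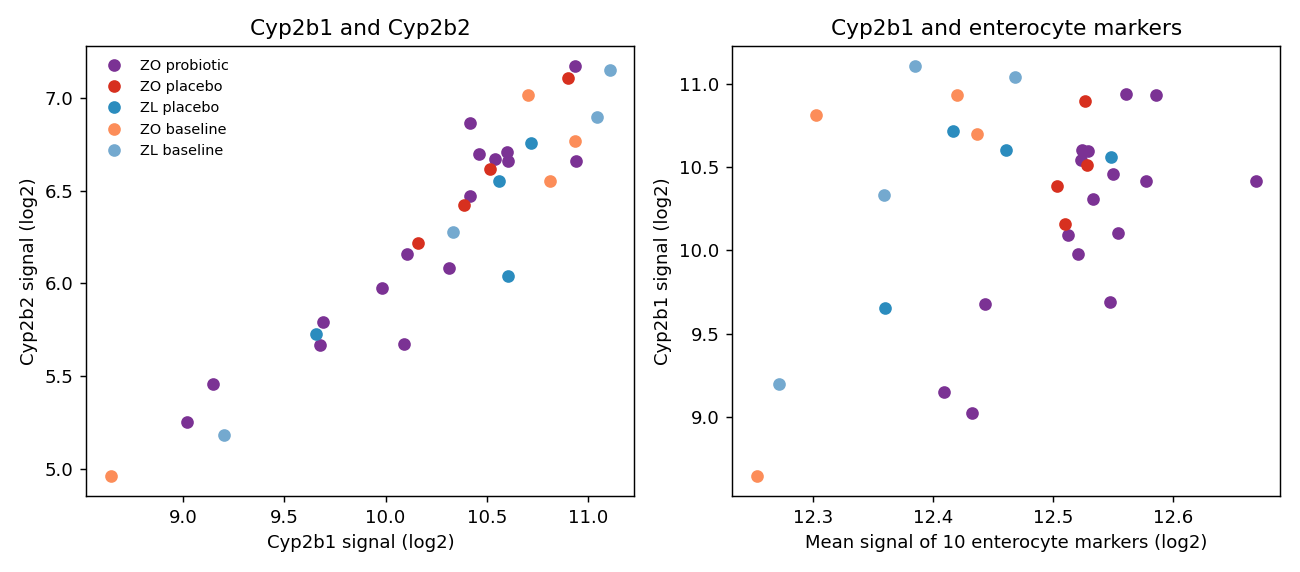
Log2 signal of Cyp2b2 against Cyp2b1 (left) and of Cyp2b1 against the mean of 10 enterocyte markers (right), 1 point per rat, coloured by group. Rats with low Cyp2b1, such as ZO baseline rat Z4 at 8.65, also have low Cyp2b2, and on the left the groups lie over each other. Values are as measured, before group means were subtracted.

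Whether the obese genotype differs from the lean one after 30 days was asked in ZO placebo against ZL placebo rats. One member passed the threshold, Cyp2d3, a gene of the Cyp2d subfamily that oxidises many drugs. In limma, with p values adjusted over all 29214 probe sets, 1 of 48 members was called, against 1.04% of all probe sets. At an unadjusted p under 0.05 there were 13 members (27.1%), against 11.4% of all probe sets. Cyp2d3 had 4.67, 4.85, 5.11 and 4.77 in ZO placebo rats, against 4.04, 3.94, 4.49 and 3.78 in ZL placebo rats. All 4 ZO rats lay above all 4 ZL rats, and the gene was 1.73-fold higher (log2 fold change 0.79, standard error 0.18, limma adjusted p = 0.0231). The call ended without C13 (adjusted p = 0.0813 in limma), C16 (0.114), Z13 (0.0705) or Z15 (0.123), and when only these 2 groups were modelled (0.0804). Its probe set was dim, with a mean of 4.54. Cyp2d3 lies at chr7:115797785-115802142 (GRCr8), in a cluster with Cyp2d2, Cyp2d4 and Cyp2d5. It had a correlation of 0.66 with Cyp2d2 and 0.60 with Cyp2d5 over the 32 arrays after group means were subtracted. Whether its probe set also reads other genes of the cluster, such as the brighter Cyp2d4 (mean 10.53) and Cyp2d2 (8.06), was not tested. The bases before the annotated start of Cyp2d3 are shown as those of the member called in both comparisons with ZL placebo rats (RefSeq, GRCr8, chr7:115802143-115802242, - strand), with capitals for the reverse complement of TATAAA.
Cyp2d3: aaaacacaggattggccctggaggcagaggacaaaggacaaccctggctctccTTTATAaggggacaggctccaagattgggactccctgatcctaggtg
TATAAA, read on both strands, occurred in the windows of 13 of 44 member genes found in that table (29.5%), against 15.3% of all genes there. Cyp1a1, Cyp2a2, Cyp4f4 and Cyp4v3 were not searched. The AhR core GCGTG occurred in 13 members (29.5%, against 32.4% of all genes) and AGGTCA, a core bound by nuclear receptors, in 12 (27.3%, against 16.9%), and these matches only describe the letters in the windows.

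Cyp1a1, which oxidises aromatic hydrocarbons and is the best known AhR target, lies at chr8:66991940-66998014 (GRCr8). Its probe set was dim, with a mean of 4.18 over the arrays, below the median of all probe sets (4.89). Cyp1a1 had the lowest log2 fold change of the members in the same comparison. It had 3.53, 3.86, 3.75 and 3.94 in ZO placebo rats, against 4.06, 5.48, 7.81 and 4.19 in ZL placebo rats. No ZO rat reached the lowest ZL rat, but the ZL rats were spread widely, and rat C15 stood highest. The log2 fold change was -1.61 (standard error 0.44) and did not pass (limma adjusted p = 0.0678). Without the high rat C15 the log2 fold change was -0.81. It passed in 4 of 16 alternatives, namely without C11 or C16, with array weights and when probe sets were averaged per gene, and limma adjusted p values ran from 0.0054 to 0.4 over the 16. At baseline Cyp1a1 had 3.79, 4.91, 3.65 and 4.80 in ZO rats, against 6.14, 5.75, 5.86 and 4.96 in ZL rats. These groups did not overlap either. The log2 fold change was -1.39 (standard error 0.44, limma adjusted p = 0.286). No member was called at baseline, and the share called among all probe sets was 0%. An unadjusted p under 0.05 was found there for 10 members (20.8%), against 11.5% of all probe sets. The methods' t-test called none after adjustment.

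Given the same direction at both times, the genotypes were also compared over the mean of both times, a comparison added after the values were seen. In limma 4 members passed, 2 higher and 2 lower in ZO rats, against 1.21% of all probe sets. At an unadjusted p under 0.05 there were 16 members (33.3%), against 14.5% of all probe sets. Cyp1a1 was 2.83-fold lower in ZO rats (standard error 0.31 on the log2 scale, limma adjusted p = 0.0105). Cyp4f40 was lower with a log2 fold change of -0.34 (limma adjusted p = 0.043). Cyp2d3 was higher by 0.56 (adjusted p = 0.0212 in limma) and Cyp3a9 by 0.35 (0.0323). Cyp3a9 had 11.86, 11.71, 11.90 and 11.75 in ZO placebo rats, against 11.31, 11.66, 11.56 and 11.24 in ZL placebo rats, and 11.71, 11.66, 11.78 and 11.42 in ZO baseline rats, against 10.85, 11.33, 11.50 and 11.57 in ZL baseline rats. The placebo groups did not overlap and the baseline groups did. None of the 4 passed when only the 4 groups were modelled. Of 24 alternatives run for each gene, Cyp1a1 passed in 22, Cyp2d3 in 19, Cyp3a9 in 14 and Cyp4f40 in 9. The call of Cyp2d3 ended without Z3, C16 or Z15, and that of Cyp3a9 without any of C1, Z1, Z3, C11, C16, Z11 or Z15. That of Cyp3a9 also ended under quantile normalization (log2 fold change 0.28, limma adjusted p = 0.0846). The call of Cyp4f40 ended with array weights and without any of C1, C2, C3, Z1, Z2, Z3, C11, C13, C16, Z11, Z13 or Z15. The number of members called was 1 without C16, Z3 or Z15 and 2 without Z11.

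**Figure D3:**
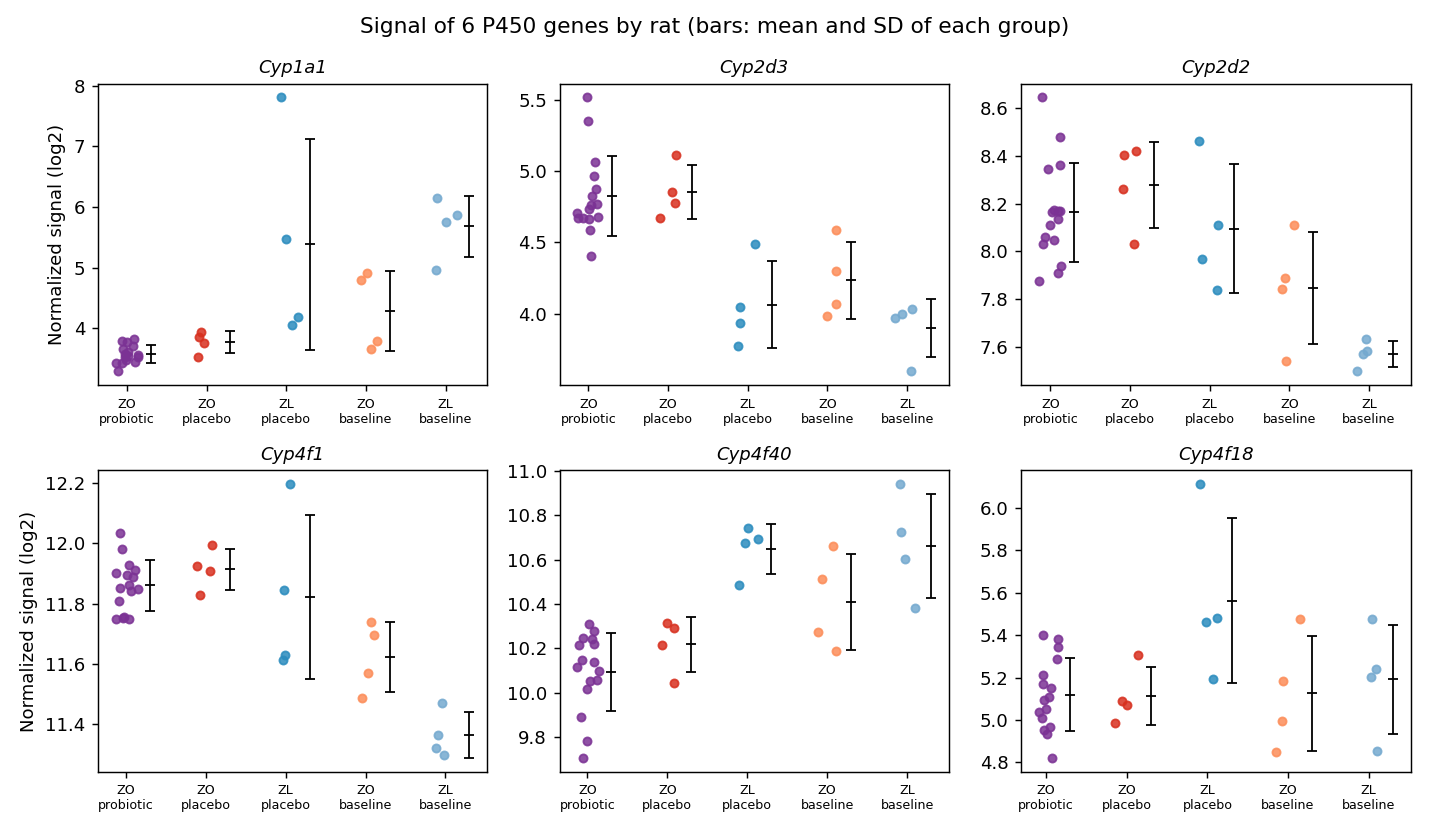
Log2 signal of 6 P450 genes in each rat (points), with the mean and SD of each group (bars), for ZO probiotic (16 rats), ZO placebo, ZL placebo, ZO baseline and ZL baseline (4 rats each). All ZO rats after 30 days lie below all ZL placebo rats for Cyp1a1 and Cyp4f40, and the ZO placebo rats lie above the ZL placebo rats for Cyp2d3.

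ZO rats given a probiotic were set against ZL placebo rats, a comparison that holds the genotype as well as the treatment and shares the ZL placebo rats with the one above. In limma 4 members passed, Cyp2d3 higher and Cyp1a1, Cyp4f40 and Cyp4f18 lower, against 4.66% of all probe sets. Cyp1a1 had a lowest, median and highest signal of 3.29, 3.54 and 3.81 in ZO probiotic rats, all below the lowest ZL placebo rat at 4.06. It was 3.52-fold lower (log2 fold change -1.81, standard error 0.35, limma adjusted p = 0.00163), and the log2 fold change was -1.01 without rat C15. The ZO probiotic signals of this gene lay near the dim end, where the background is not known. Cyp4f40 had 9.71, 10.13 and 10.31 in ZO probiotic rats, against 10.74, 10.69, 10.49 and 10.67 in ZL placebo rats. The groups did not overlap, and the log2 fold change was -0.55 (standard error 0.10, limma adjusted p = 0.000699). Cyp2d3 had 4.41, 4.75 and 5.52 in ZO probiotic rats, and the ZL placebo rat C15 at 4.49 lay within that range. Its log2 fold change was 0.77 (standard error 0.14, limma adjusted p = 0.00132). The calls of Cyp1a1, Cyp4f40 and Cyp2d3 held under all 11 alternatives run for each.

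Cyp4f18, whose product hydroxylates leukotriene B4 in the mouse, had 4.82, 5.10 and 5.40 in ZO probiotic rats, against 5.20, 6.11, 5.46 and 5.48 in ZL placebo rats, the highest being C13. The log2 fold change was -0.44 (limma adjusted p = 0.0297). Without C13 it was -0.26 with adjusted p = 0.309 in limma, and without C16 adjusted p = 0.0653. It did not pass with array weights either. Cyp4f5 (log2 fold change 0.40) and Cyp2t1 (-0.61) lay close to the threshold, with limma adjusted p = 0.0512 and 0.0589.

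Against ZO placebo rats, which share the genotype, no member was called in ZO probiotic rats, with 0.00342% of all probe sets called in limma. An unadjusted p under 0.05 was found for 0 members, against 4.12% of all probe sets. The ZO probiotic group pools several bacterial strains, so effects of single strains were not tested. Log2 fold changes ran from -0.34 for Cyp2b2 (standard error 0.34) to 0.15 for Cyp2w1 (0.15). Cyp1a1 averaged 3.57 ± 0.15 in ZO probiotic rats (SD, n = 16) and 3.77 ± 0.18 in ZO placebo rats (SD, n = 4). Cyp4b1 averaged 11.49 ± 0.60 in ZO probiotic rats (SD, n = 16) and 11.82 ± 0.18 in ZO placebo rats (SD, n = 4), which is within the spread between rats.

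**Figure D4:**
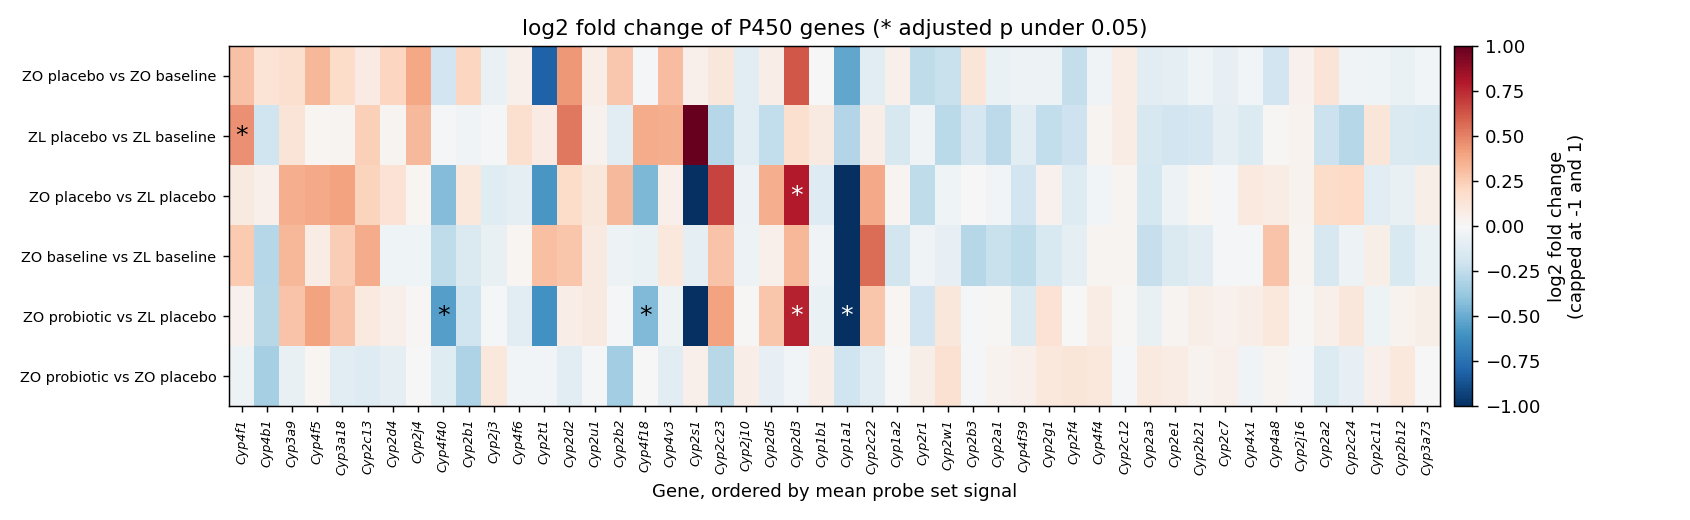
Log2 fold change of 48 P450 genes in 6 comparisons, capped at -1 and 1 (red higher, blue lower in the group named first), with genes ordered by signal and an asterisk at an adjusted p under 0.05 (limma). Asterisks mark 1 square each for ZL rats over time and for ZO placebo against ZL placebo rats, and 4 in ZO probiotic against ZL placebo rats.

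Changes over the 30 days on placebo were read within each genotype. In ZL rats Cyp4f1 rose, 1 of 48 members against 0.911% of all probe sets. Cyp4f1, a leukotriene and fatty acid hydroxylase gene, had 11.61, 12.20, 11.84 and 11.63 in ZL placebo rats, against 11.30, 11.32, 11.47 and 11.36 in ZL baseline rats. All placebo rats lay above all baseline rats, by 1.37-fold (log2 fold change 0.46, standard error 0.09, limma adjusted p = 0.0142). The call ended without C1 (limma adjusted p = 0.0625) and when ZL rats alone were modelled (0.488). In ZO rats no member was called, against 1.36% of all probe sets. The unadjusted p was under 0.05 for 9 members (18.8%), against 12.1% of all probe sets. Cyp4f1 had 11.83, 11.91, 12.00 and 11.93 in ZO placebo rats, against 11.57, 11.74, 11.70 and 11.49 in ZO baseline rats, again without overlap. The smallest adjusted p in ZO rats was that of Cyp2d3 (log2 fold change 0.62, limma adjusted p = 0.0847).

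Cyp2t1 had the lowest log2 fold change over time in ZO rats. It had 8.05, 8.07, 8.13 and 7.90 in ZO placebo rats, against 9.60, 8.29, 8.70 and 8.79 in ZO baseline rats. The groups did not overlap, and rat Z1, whose array had the lowest mean of the proximal markers (8.34), was highest. The log2 fold change was -0.80 (standard error 0.24, limma adjusted p = 0.0869). The change of ZO rats minus that of ZL rats passed for no member, against 0.00342% of all probe sets. For this difference 2 members (4.17%) had an unadjusted p under 0.05, against 8.51% of all probe sets. The lowest values were those of Cyp2s1 (-1.31) and Cyp2t1 (-0.88, limma adjusted p = 0.479), but that of Cyp2s1 was -0.022 without rat C13.

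Averaged over both genotypes, again a comparison added after the values were seen, 2 members (4.17%) rose over the 30 days, Cyp4f1 and Cyp2d2. This is close to the 4.02% called among all probe sets. Cyp4f1 was 1.30-fold higher after placebo (log2 fold change 0.37, standard error 0.06, limma adjusted p = 0.000672). Cyp2d2, a second Cyp2d gene, had 8.03, 8.42, 8.40 and 8.26 in ZO placebo rats, against 7.54, 8.11, 7.89 and 7.84 in ZO baseline rats. In ZL rats it had 8.11, 7.84, 8.46 and 7.97 on placebo, against 7.63, 7.57, 7.50 and 7.58 at baseline. The ZL groups did not overlap and the ZO groups did, and the log2 fold change was 0.48 (standard error 0.10, limma adjusted p = 0.00554). Both calls held under all 23 alternatives run for each. In the same comparison the 10 enterocyte markers had 9 above 0 and 1 below 0, with 3 higher past the threshold. The 6 markers of the proximal small intestine had a median log2 fold change of 0.67, with 6 above 0 and 1 past the threshold. The part of these markers was not tested.

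The regulators and partners of these enzymes were read from lists of other genes. Of 4 measured AhR targets outside the P450 genes, 2 fell in ZO probiotic against ZL placebo rats, against 4.66% of all probe sets, and the median of their log2 fold changes was -0.66, against 0.01 over all probe sets. Markers of other cell types differed in the same comparison. The 8 macrophage markers had a median log2 fold change of -0.66, with 8 below 0 and 1 past the threshold, and their mean ran from 6.01 to 7.35 in ZO probiotic rats, against 6.66 to 7.55 in ZL placebo rats. The 7 smooth muscle markers had a median of -0.33, with 7 below 0 and 0 past the threshold, and their mean ran from 5.59 to 7.31 in ZO probiotic rats, against 6.01 to 7.10 in ZL placebo rats. The 6 colon markers had a median of 0.72, with 4 above 0 and 2 below 0, and with 2 higher and 0 lower past the threshold. Their mean ran from 7.86 to 8.92 in ZO probiotic rats, against 7.26 to 8.22 in ZL placebo rats. For each of the 3 lists the ranges overlapped, and their part in the results of this comparison was not tested. Ahrr, which encodes the repressor of AhR and is itself an AhR target, had 4.10, 5.14 and 5.85 in ZO probiotic rats, against 5.60, 6.14, 6.70 and 6.32 in ZL placebo rats (log2 fold change -1.19, limma adjusted p = 0.00444). Nqo1, a quinone reductase gene, had 6.94, 7.71 and 8.20 in ZO probiotic rats, against 8.75, 7.41, 8.86 and 9.60 in ZL placebo rats (log2 fold change -0.99, limma adjusted p = 0.0264). For both genes the groups overlapped. In ZO placebo against ZL placebo rats 0 of the 4 passed, with a median of -0.49, and the 8 macrophage markers had a median of -0.40, with 8 below 0 and 0 past the threshold. In ZO baseline against ZL baseline rats 0 of the 4 AhR targets passed. Their median there was 0.10, with 2 above 0 and 2 below 0. Ahrr (mean 5.29 in ZO and 5.86 in ZL baseline rats) and Tiparp (8.84 and 8.93) were lower in ZO rats, as Cyp1a1 was. Nqo1 (9.01 and 8.65) and Aldh3a1 (4.21 and 3.92) were higher. The part of AhR in the signal of Cyp1a1 was not tested. A further list held genes of electron transfer and heme metabolism, of which Alas1, a gene of heme synthesis, was not measured. Of the 7 measured genes, 2 fell in ZO probiotic against ZL placebo rats. This stands beside the 4.66% of all probe sets and the macrophage median of -0.66 given above. The 2 genes were Por (log2 fold change -0.38, limma adjusted p = 0.0254) and the biliverdin reductase gene Blvrb (-0.68, 0.0124).

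**Figure D5:**
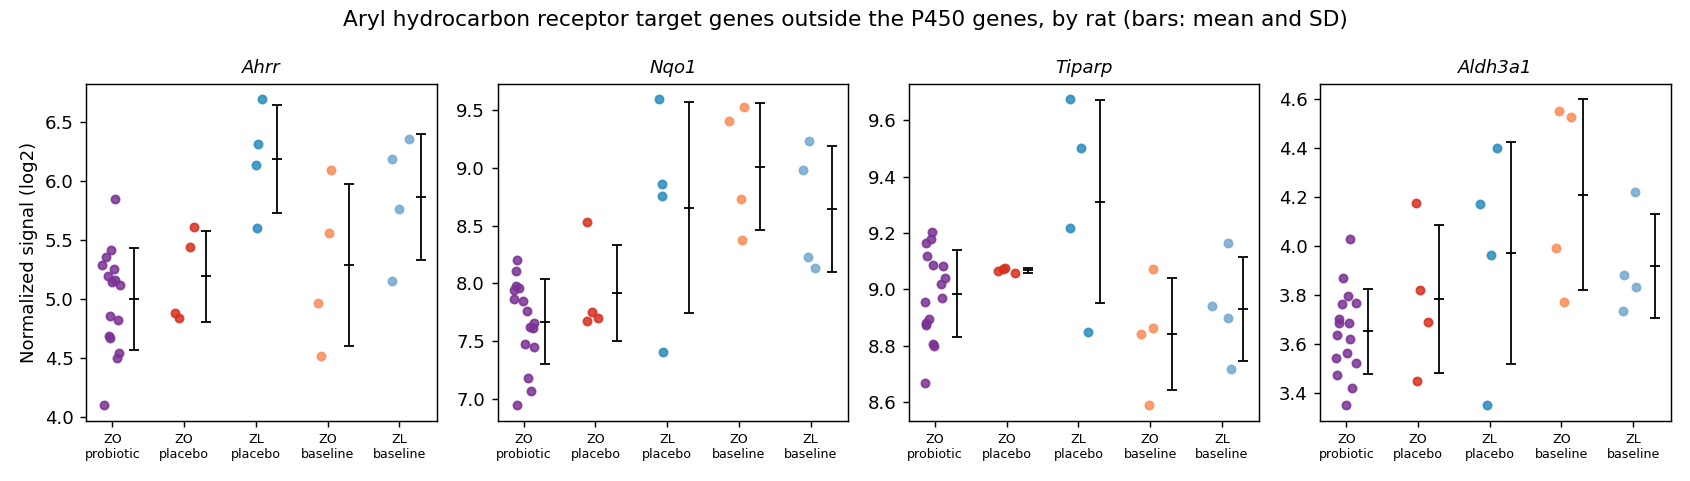
Log2 signal of 4 AhR target genes outside the P450 genes in each rat (points), with the mean and SD of each group (bars). Ahrr lies between 5.60 and 6.70 in ZL placebo rats, and between 4.10 and 5.85 in ZO probiotic rats.

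Of 14 receptors and AhR pathway regulators, 2 were higher (Ppara and Hnf4a) and 2 lower (Ahrr and Ppard) in ZO probiotic against ZL placebo rats, against 4.66% of all probe sets. In ZO placebo against ZL placebo rats 1 was higher and 1 lower, against 1.04%. Ppara, the gene of PPAR alpha, was higher in ZO placebo rats (log2 fold change 0.80, limma adjusted p = 0.00859). Ppard, the gene of PPAR delta, was lower, with 10.17, 10.43, 10.27 and 10.52 in ZO placebo rats, against 10.67, 10.90, 10.75 and 10.89 in ZL placebo rats (log2 fold change -0.46, limma adjusted p = 0.0255). Of 12 measured PPAR targets outside the P450 genes, 7 were higher and 0 lower in that comparison, against 1.04% of all probe sets, and the median of their log2 fold changes was 1.24. The mean of the 6 colon markers ran from 8.46 to 9.12 in ZO placebo rats, against 7.26 to 8.22 in ZL placebo rats, without overlap, and its part was not tested. Of these markers 4 had a log2 fold change above 0 and 2 one below 0, with 1 higher past the threshold. For the P450 members the median log2 fold change in that comparison was 0.03. Cyp4a8, the 1 member of the PPAR-regulated Cyp4a subfamily, had a dim probe set with a mean of 2.95. The probe set of Cyp4a1 carries its symbol more than once and lies outside the rule. In ZO placebo against ZL placebo rats its log2 fold change was 0.35 (limma adjusted p = 0.78). It averaged 8.12 ± 0.34 in ZO placebo rats (SD, n = 4) and 6.94 ± 0.82 in ZO baseline rats (SD, n = 4), with a log2 fold change of 1.18 (limma adjusted p = 0.0773). Averaged over both genotypes it rose over the 30 days, by 0.87 on the log2 scale (limma adjusted p = 0.0347). Both values include ZO baseline rat Z1 at 5.72, against 7.27, 7.49 and 7.29 in the other ZO baseline rats. The array of Z1 had the lowest mean of the proximal markers (8.34). In ZL placebo rats C13 was highest, with 8.61 against 7.53, 7.73 and 7.21 in the others. Of 8 probe sets with several symbols that hold a P450 symbol of these families, 1 passed in ZO placebo against ZL placebo rats. It carries the symbols Cyp2c6v1 and Cyp2c6, with a median of 4.62 in ZO placebo rats and 3.44 in ZL placebo rats (log2 fold change 1.01, limma adjusted p = 0.0224). The same probe set passed in ZO placebo against ZO baseline rats (0.91, limma adjusted p = 0.0372). It also passed in ZO probiotic against ZL placebo rats (0.93, limma adjusted p = 0.00209). At baseline its median was 3.49 in both genotypes. The change of ZO rats minus that of ZL rats did not pass (1.09, limma adjusted p = 0.307). Of 18 genes of other P450 families, 0 were called in ZO placebo against ZL placebo rats.

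Cyp2s1 had log2 fold changes of -1.40 in ZO placebo against ZL placebo rats and 1.36 in ZL placebo against ZL baseline rats, neither past the threshold. Without rat C13 these were -0.11 and 0.073. It had 4.55, 5.11, 4.98 and 4.99 in ZO placebo rats, against 5.06, 10.17, 4.61 and 5.38 in ZL placebo rats. The value of 10.17 is that of C13, whose lost decimal point can be read as 10.17 or 1.02. The second probe set of the gene had 2.79 on C13, within 2.69 to 3.24 on the other arrays.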

How the data were processed

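RNA of the intestinal mucosa was hybridised to Affymetrix Rat Gene 1.1 ST arrays. The study's methods name RMA, with the Expression Console and the Partek Genomics Suite, and which of them made the values is not given in the sources used here. The deposited score is the authors' log2 RMA signal with its decimal point lost in nearly all of 934848 values. It was restored behind the second digit for values that begin with 10 to 13, and behind the first digit for the others. Of 63652 values placed at 10 or above, 8 were ambiguous. The tests had been planned for log2 values. Groups came from the labels.

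All 29214 probe sets entered a limma model of 5 group means (limma 3.58.1, R 4.3.3, and version 1.17.8 of the data.table package), with Benjamini-Hochberg adjustment over all of them and a threshold of 0.05. Correlations were computed after subtracting group means, in Python 3.11.15 and pandas 2.3.3. Named were the members past the threshold, the 10 with the highest mean and, per comparison, the 3 largest rises and falls. In the other lists up to 4 genes past the threshold were named. The members and lists were chosen with earlier results of these data known. The models were tested on simulated data. Alternatives were quantile normalization, median centring, leaving out the lowest 30% of probe sets, averaging probe sets per gene, only the groups compared, array weights, ambiguous values set to missing, leaving out each rat of the groups of 4, the methods' t-test and a replicate block.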

Additional observations from a re-analysis of the deposited data

Results flagged for a closer look

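In groups of 4 rats, 1 rat lay far from the other 3 in 8 of 100 groups examined, for 25 named members (by Dixon's test). For a single group, chance alone gives about 1 in 20. The members were named partly for large fold changes in these data, and the groups share arrays. The 8 can therefore not be judged against that rate. The lowest rats were Z4 for Cyp2b1 in ZO baseline rats (8.65, the others 10.70 to 10.93), C11 for Cyp2b1 in ZL placebo rats (9.66, the others 10.56 to 10.72), Z16 for Cyp2c13 in ZO placebo rats (10.79, the others 10.85 to 10.86), Z2 for Cyp2c24 in ZO baseline rats (2.70, the others 2.96 to 2.99), C2 for Cyp2d3 in ZL baseline rats (3.60, the others 3.97 to 4.03) and Z11 for Cyp2d4 in ZO placebo rats (10.58, the others 10.66 to 10.67). C13 was the highest ZL placebo rat for Cyp2j4 (11.22, the others 10.25 to 10.40) and for Cyp2s1 (10.17, the others 4.61 to 5.38), and its Cyp2s1 value is one of the 8 ambiguous ones.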

How the results depend on the processing

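Counts of called members changed as follows, and the causes were not tested. In ZO placebo against ZO baseline rats there were 0, with 4 under array weights and 8 by the methods' t-test unadjusted. In ZL placebo against ZL baseline rats there was 1, with 2 when probe sets were averaged, 0 with only the groups compared, and 0 adjusted and 6 unadjusted by the methods' t-test. In ZO placebo against ZL placebo rats there was 1, with 2 when averaged, 0 with only the groups compared, 4 under array weights, and 0 adjusted and 7 unadjusted by the methods' t-test. At baseline the t-test gave 5 unadjusted. In ZO probiotic rats there were 4 against ZL placebo rats, with 7 with only the groups compared and 10 by the t-test unadjusted, and 1 by that test against ZO placebo rats. Over the mean of both times, 4 became 0 with only the groups compared. Over the mean of both genotypes, 2 became 4 under array weights.

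Leaving out single rats gave 0 to 1, 0 to 2, 0 to 2, 0 to 0, 0 to 0, 3 to 6 and 0 to 0 calls in ZO over time, ZL over time, ZO against ZL on placebo, ZO against ZL at baseline, ZO probiotic against ZO placebo, ZO probiotic against ZL placebo and the difference of changes. The added comparisons gave 1 to 5 for the genotypes and 2 to 3 for the 30 days. With a replicate block 1 member was called in ZO against ZL on placebo, 0 at baseline, 0 for the difference of changes and 0 over the mean of both times. Same-numbered rats had correlations of -0.12 to 0.34. Differently numbered rats were not compared, so this does not settle whether the numbers pair the rats. Of 996 alternative values of 58 named fold changes, 924 kept direction and side of the threshold, 26 newly passed, 42 no longer passed and 4 changed sign, none of them a called value. These were Cyp1a1 in ZL rats over time (0.23 with array weights, 0.15 without C11, 0.10 without C16, and -1.10 to 0.15 without single rats) and Cyp2b2 for the difference of changes (-0.081 without Z4, and -0.081 to 0.77 without single rats). RMA gives no detection calls, so signals near the dim end have no known background.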
